A study of Danio rerio with 22 samples.

Results

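Germ cells of W-hybrid zebrafish larvae were compared at 12 days post fertilization (dpf) and at 10 dpf, with 4 libraries at 12 dpf and 3 at 10 dpf, which are 7 of the 22 libraries of the series. The 7 libraries were chosen by their labels, as all W-hybrid germ cell libraries made by Smart-seq HT, a method that copies and amplifies full-length cDNA from few cells. W-hybrids came from WW females of the Nadia strain, in which the W locus marks females, crossed with Tg(ziwi:GFP) fish of the Tüpfel long fin background, so that both ages share the W locus, the hybrid background and the transgene, and both are presumptive females. GFP was driven by the promoter of ziwi, and each library held GFP-positive cells sorted from the pooled gonads of many larvae, so a library is a pool and not an animal. The other groups used here for comparison were Z-hybrid germ cells (presumptive males from ZZ Nadia fish and Tg(ziwi:GFP) fish) at 12 dpf (4 libraries) and 10 dpf (3 libraries) by Smart-seq HT, W-hybrid germ cells at 14 and 12 dpf made with Quartz-seq, per the study's methods (2 libraries each), and trunk cells at 10 dpf by Smart-seq HT (2 libraries). Nothing in the labels ties a replicate to a separate clutch, so p-values measure only the spread between these pools.

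Early zebrafish gonads pass through a stage at which germ cells divide mitotically and some of them enter meiosis as young oocytes, whatever the later sex. In meiotic prophase, homologous chromosomes are broken by Spo11, repaired from each other by recombinases such as Dmc1, and zipped together by the synaptonemal complex (Sycp1, Sycp2, Sycp3). Meiotic cohesins (Rec8, Rad21l1, Smc1b, Stag3) hold sister chromatids, while the MutS homologues Msh4 and Msh5 stabilise the sites that become crossovers. Oocyte differentiation itself is run by transcription factors such as Figla and Lhx8, known best from the mouse. The comparison of ages asks which of these programmes had changed in 2 days.

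Total counts per library lay between 13556577 and 17700492 at 12 dpf and between 16906267 and 17196782 at 10 dpf, and 20474 of 32057 genes had enough counts to be tested. The sort held germ cells by their own markers: DDX4 (vasa) had 893.01 to 1636.04 TPM (a level per transcript length, scaled to the same sum in each library) at 12 dpf and 826.39 to 1215.52 TPM at 10 dpf, against 0.09 and 0 TPM in the trunk libraries. Replicates 2 and 3 at 12 dpf stood apart from the other 5 libraries, with correlations of log2 CPM of 0.94 to 0.951 to any library, against 0.968 to 0.978 among the other 5. Counts are therefore also given without both of them. Among the markers of other cell types, those of connective tissue and endothelium summed to 40.8 to 82.2 TPM at 12 dpf and 35.6 to 46.6 TPM at 10 dpf, against 5290 to 8260 TPM in trunk cells. Blood and immune markers summed to 72.4 to 85.8 TPM at 12 dpf and 53.1 to 57.6 TPM at 10 dpf, and muscle markers to 414 to 442 TPM at 12 dpf and 328 to 389 TPM at 10 dpf. The blood and muscle sums were higher in every library at 12 dpf than in any at 10 dpf. In trunk cells they were 1860 to 5720 TPM for blood and 142 to 8180 TPM for muscle. Gonadal somatic markers summed to 116 to 144 TPM at 12 dpf and 119 to 191 TPM at 10 dpf, against 8.68 to 9.28 TPM in trunk cells. Neural and pigment markers summed to 1910 to 2320 TPM at 12 dpf and 2280 to 2790 TPM at 10 dpf. In trunk cells they summed to only 378 to 412 TPM, so this sum does not measure an admixture of trunk cells. The sums of epidermis, kidney and gut markers overlapped between the ages. Of the tested markers, 6 of 21 for connective tissue, 3 of 15 for blood and 4 of 32 for muscle were higher. None of these was lower, with an unadjusted p under 0.05 as the limit. By the same limit, 6.64% of the 20474 genes were higher and 6.42% lower. Gut had 2 of 23 markers higher, epidermis 1 of 15 and kidney 1 of 14, with none lower. Gonadal somatic markers had 1 of 16 each way. Neural and pigment markers had 2 of 19 higher and 1 lower. No marker was at 0 in all 7 libraries. The part of these markers in the results below was not tested. Fewer cells of a type and less RNA per cell cannot be told apart in such sorted pools.

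Between the ages, 37 genes passed all criteria, 32 higher and 5 lower at 12 dpf (edgeR's quasi-likelihood test, adjusted p under 0.05, at least 1.5-fold, mean TPM above 5 in the higher group). These are 0.156% and 0.0244% of the genes tested. By the wider measure of libraries that do not overlap, with the same fold and TPM limits, 301 genes (1.47%) were higher and 289 (1.41%) lower. Of the 32, 13 belong to lists of meiotic or early oocyte genes. These lists held 7, 11, 17, 11, 10 and 24 of the 20474 genes tested. In a list of male germ cell or testis genes, 1 of 12 tested was called higher. Of the 12, 7 lay above 0, beside 52.4% of all genes tested, and the median log2 fold change was 0.18. In it, 2 were higher and none lower at an unadjusted p under 0.05. Its mean log2(TPM + 1) was 2.77 to 2.84 at 12 dpf and 2.46 to 2.72 at 10 dpf. Fold changes of the 32 spanned 0.92 to 3.6 on the log2 scale with a median of 1.84, while the median over all genes tested was 0.03. The count depended on the libraries: without both replicates 2 and 3 of 12 dpf, 34 genes were called higher and 1 lower, and 28 of the 37 were among them. Leaving out a single 10-dpf library brought the count to between 9 and 11, while leaving out 12-dpf replicate 1 or 4 brought it to 82 or 83. On the same 7 libraries DESeq2 called 134 higher (0.654%) and 49 lower (0.239%), against 32 and 5 by edgeR. When all 14 Smart-seq germ cell libraries of both hybrids entered 1 edgeR fit, no gene was called (smallest adjusted p = 0.0518). In that fit 1397 genes were higher and 1347 lower at an unadjusted p under 0.05. The fit of both hybrids gave 24 once Z-hybrid 12-dpf replicate 1 was left out, a setting that was not planned and was chosen after seeing the data. Fold changes come from the counts and can differ from ratios of TPM, since TPM also follows the length of the transcripts used.

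**Figure D1:**
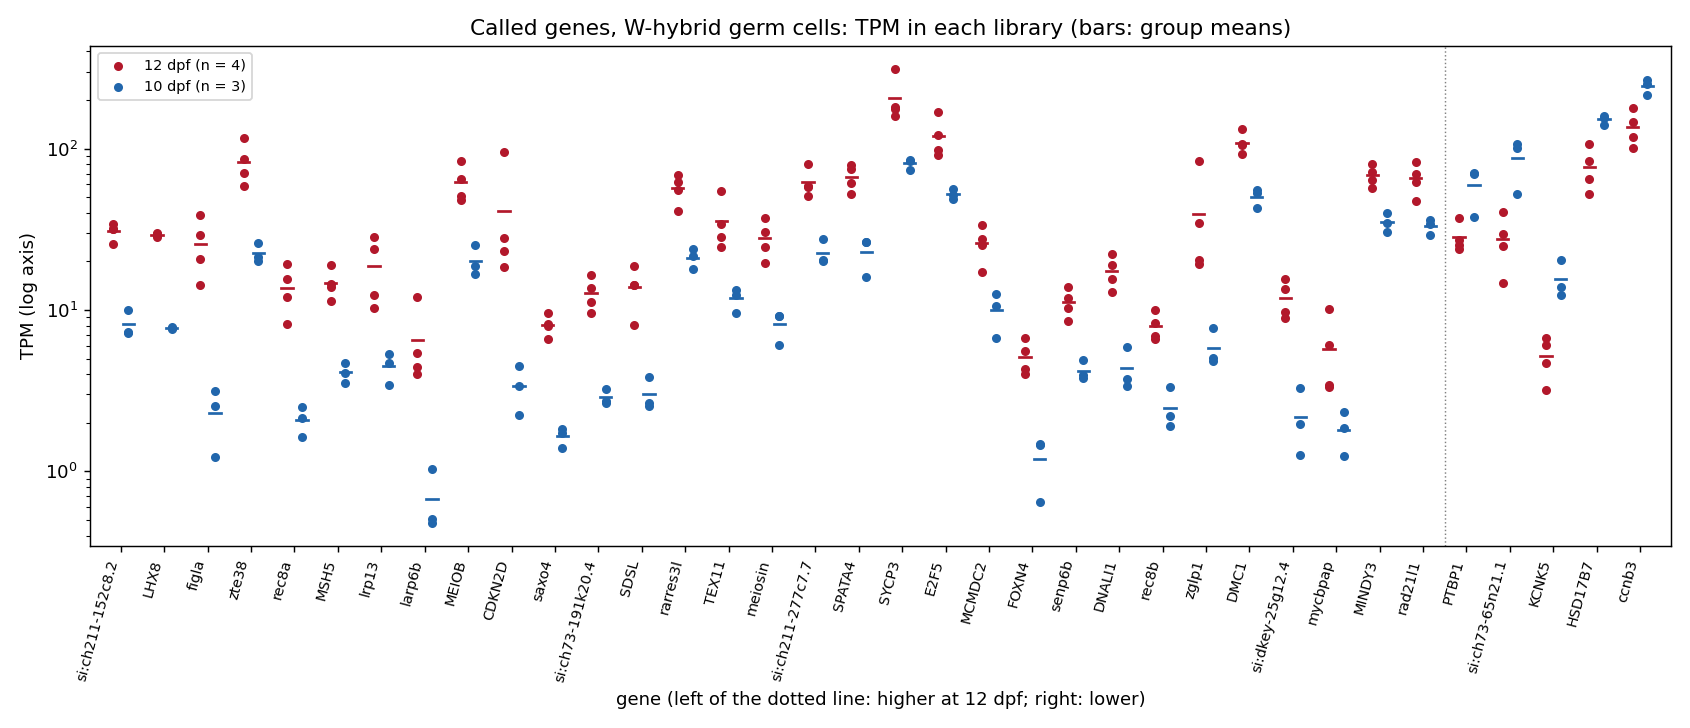
TPM on a log axis for 36 of the 37 called genes in each W-hybrid library, with 12 dpf (red, n = 4) left of 10 dpf (blue, n = 3) for each gene and bars for the means. The 31 genes left of the dotted line were higher at 12 dpf and the 5 right of it lower, and the libraries of the 2 ages do not overlap for any of them.

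Oocyte transcription factors were among the 7 genes called in every fit that left out a single library. LHX8 (ENSDARG00000002330), a LIM homeobox factor that mouse oocytes need for their early growth, had 30.02, 29.54, 29.01 and 28.25 TPM at 12 dpf, against 7.72, 7.84 and 7.61 TPM at 10 dpf. The libraries within each age were nearly equal, and the log2 fold change was 1.88 ± 0.22 (SE; adjusted p = 0.00108 by edgeR). Figla (figla, ENSDARG00000087166), a basic helix-loop-helix factor that turns on zona pellucida genes in the mouse, had 38.52, 20.74, 29.19 and 14.24 TPM at 12 dpf, against 2.53, 3.13 and 1.23 TPM at 10 dpf. The 12-dpf libraries thus varied more for figla than for LHX8, but all 4 lay above every 10-dpf library, by 3.39 ± 0.41 on the log2 scale (adjusted p = 0.00108).

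Of the 24 early oocyte genes tested, 2 were called higher and none lower, beside 0.156% and 0.0244% of all genes tested. At an unadjusted p under 0.05, 7 were higher at 12 dpf and none lower. The median log2 fold change was 0.26 (0.46 without 12-dpf replicates 2 and 3). Over all genes tested 6.64% were higher and 6.42% lower at that unadjusted threshold, and 52.4% lay above 0. foxr1, a forkhead gene expressed in the ovary, had 6.73, 0.61, 4.75 and 3.57 TPM at 12 dpf, against 0.58, 0.12 and 0.26 TPM at 10 dpf, and missed the threshold (log2 fold change 3.54 ± 0.72, adjusted p = 0.0534). Its mean level at 12 dpf was also below the minimum of 5 TPM for a call. Replicate 2 at 12 dpf held little more foxr1 than the highest 10-dpf library. foxl2l, a forkhead gene of germ cells entering the female path, was already abundant: it had 1623.09, 1540.76, 1090.57 and 1509.33 TPM at 12 dpf, against 901.38, 985.2 and 1040.78 TPM at 10 dpf (log2 fold change 0.53 ± 0.17, adjusted p = 0.248). Genes known for growing oocytes did not pass the test in either direction: bmp15 averaged 14.8 TPM at 12 dpf and 17.7 TPM at 10 dpf, GDF9 6.16 TPM at 12 dpf and 5.34 TPM at 10 dpf, and the egg coat gene zp3b 17.5 TPM at 12 dpf and 14.8 TPM at 10 dpf.

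Synaptonemal complex genes split. SYCP3 (ENSDARG00000013438), which builds the lateral elements of the complex, had 181.94, 312.75, 158.78 and 175.37 TPM at 12 dpf, against 85.23, 84.09 and 73.84 TPM at 10 dpf (log2 fold change 1.37 ± 0.24, adjusted p = 0.0192). Replicate 2 stood far above the other 12-dpf libraries, though those too lay above every 10-dpf library. Leaving out libraries one at a time, 4 of 7 fits still called it. SYCP1, the transverse filament, had 113.04, 73.82, 79.15 and 102.58 TPM at 12 dpf, against 72.79, 62.2 and 76.4 TPM at 10 dpf, and the ages overlapped in TPM (adjusted p = 0.373). HORMAD1, a protein of unsynapsed axes, had 410.62 to 542.57 TPM at 12 dpf and 504.39 to 546.23 TPM at 10 dpf. Of the 7 members tested, 1 was called higher and 3 were higher at an unadjusted p under 0.05, with a median log2 fold change of 0.29.

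Meiotic kleisins were called in the cohesin list. rec8a (ENSDARG00000078329), which codes for the meiosis-specific kleisin that holds sister chromatids, had 12.09, 19.2, 8.15 and 15.67 TPM at 12 dpf, against 1.63, 2.49 and 2.13 TPM at 10 dpf, a log2 fold change of 2.67 ± 0.35 (adjusted p = 0.00285). Its copy rec8b averaged 7.96 ± 1.55 TPM at 12 dpf and 2.48 ± 0.75 TPM at 10 dpf (SD, n = 4 and 3; log2 fold change 1.63 ± 0.30, adjusted p = 0.0312). The counter shares reads between similar genes, so how much each of the copies holds is uncertain. rad21l1, another meiotic kleisin, averaged 65.4 ± 15 TPM at 12 dpf and 33.3 ± 3.54 TPM at 10 dpf (log2 fold change 1.02 ± 0.20, adjusted p = 0.0387). Across the 11 genes of meiotic cohesin and of telomere attachment, 3 were called higher, 6 were higher and none lower at an unadjusted p under 0.05, and the median was 0.41. The telomere attachment genes terb1, terb2 and MAJIN had log2 fold changes of 0.07, 0.32 and 0.05.

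Among recombination genes, those called act on the broken ends. DMC1 (ENSDARG00000055883), the meiotic recombinase, had 106.23, 131.38, 92.02 and 105.61 TPM at 12 dpf, against 53, 55.12 and 42.75 TPM at 10 dpf (log2 fold change 1.06 ± 0.20, adjusted p = 0.0312). MEIOB, a single-strand DNA binding protein of meiosis that works with Spata22, had 64.83, 84.19, 51.14 and 48.09 TPM at 12 dpf, against 25.1, 18.7 and 16.79 TPM at 10 dpf (log2 fold change 1.63 ± 0.24, adjusted p = 0.00737). In each case the lowest 12-dpf library exceeded the highest 10-dpf library. MCMDC2, needed in the mouse for repair of meiotic breaks, averaged 25.9 ± 6.7 TPM at 12 dpf and 9.98 ± 3.02 TPM at 10 dpf (adjusted p = 0.0272). spo11, the break-forming enzyme, had 38.36, 26.82, 19.37 and 33.69 TPM at 12 dpf, against 38.1, 29.09 and 38.53 TPM at 10 dpf, a log2 change of -0.29 ± 0.22 (adjusted p = 0.575). Of the 17 genes of break formation and strand exchange, 3 were called higher and 4 were higher at an unadjusted p under 0.05, with none lower. In the list as a whole, 9 of 17 lay above 0, with a median of 0.09 (0.01 without 12-dpf replicates 2 and 3). Its mean log2(TPM + 1) was 5.47 to 5.71 at 12 dpf and 5.24 to 5.42 at 10 dpf, without overlap.

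Crossover genes had the highest median of the meiotic lists, 0.74, with 2 of 11 called higher and 6 higher and none lower at an unadjusted p under 0.05. The median was 0.45 without 12-dpf replicate 1. MSH5 (ENSDARG00000077479) had 14.52, 18.9, 13.79 and 11.34 TPM at 12 dpf, against 3.55, 4.09 and 4.67 TPM at 10 dpf (log2 fold change 1.84 ± 0.25, adjusted p = 0.00332). TEX11, a crossover protein in the mouse, had 34.16, 54.69, 28.38 and 24.71 TPM at 12 dpf, against 13.26, 9.64 and 12.47 TPM at 10 dpf (log2 fold change 1.56 ± 0.25, adjusted p = 0.0127). Both were higher in every 12-dpf library. MSH4, the partner of Msh5, averaged 14.6 TPM at 12 dpf and 6.36 TPM at 10 dpf without passing the adjusted threshold (log2 fold change 1.08, adjusted p = 0.109), and exo1, which also acts in mismatch repair, had a log2 fold change of 0.07.

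Regulators of meiotic entry were also among the genes called. meiosin, which in the mouse acts with Stra8 to switch on meiotic genes, had 19.63, 37.16, 24.39 and 30.31 TPM at 12 dpf, against 9.13, 9.24 and 6.05 TPM at 10 dpf (log2 fold change 1.72 ± 0.28, adjusted p = 0.0127). zglp1, a GATA-like zinc finger factor that directs the oogenic programme in the mouse, had 19.24, 83.64, 34.44 and 20.29 TPM at 12 dpf, against 5.01, 4.82 and 7.69 TPM at 10 dpf (log2 fold change 2.74 ± 0.47, adjusted p = 0.0312). Again the peak was in replicate 2, and the groups did not overlap. Of the 10 genes of this list, 2 were called higher and 4 were higher at an unadjusted p under 0.05, with none lower and a median of 0.11. YTHDC2, an RNA helicase of meiotic entry in the mouse, showed how replicates 2 and 3 can carry a value: it had 2.02, 5.67, 4.93 and 1.04 TPM at 12 dpf, against 1.17, 1.05 and 2.55 TPM at 10 dpf, and its log2 fold change of 1.09 became -0.07 without them.

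**Figure D2:**
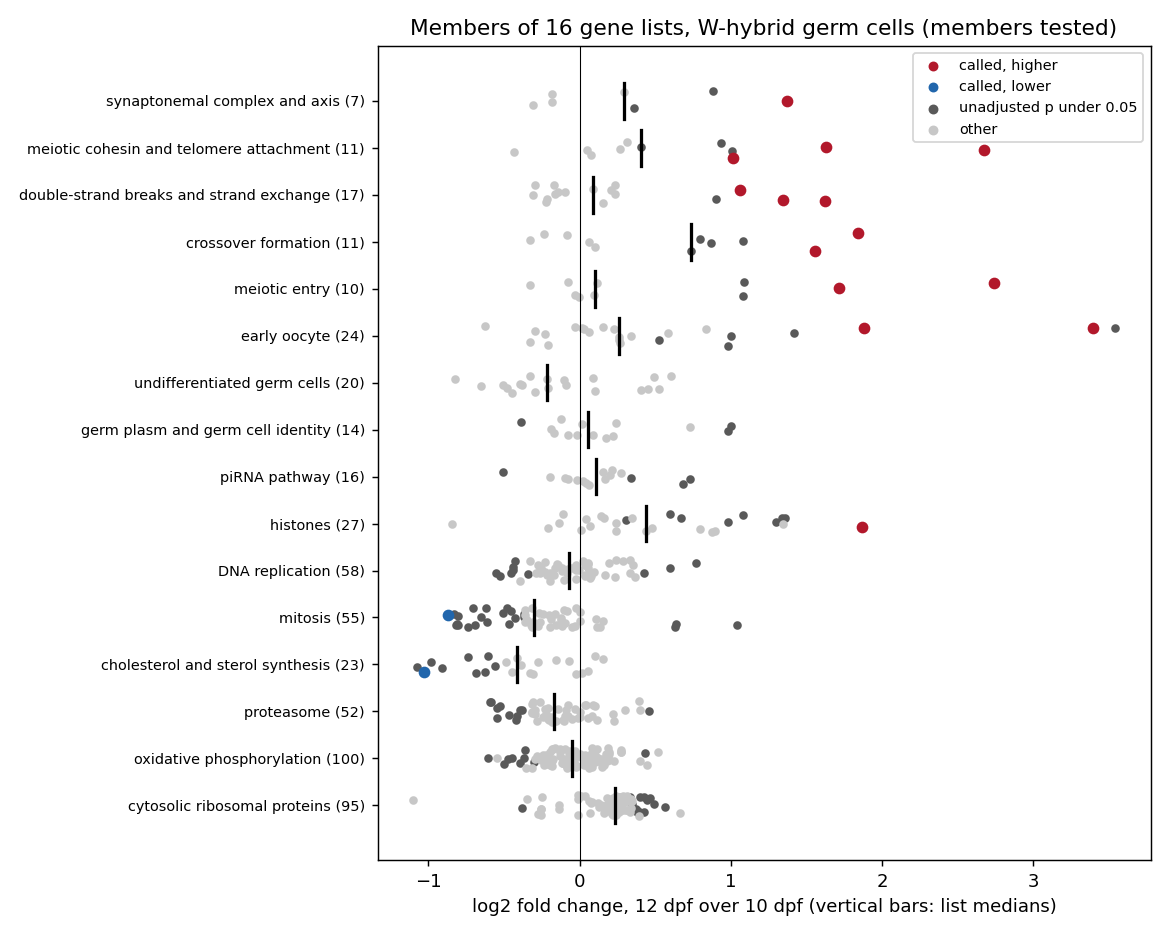
Log2 fold change at 12 over 10 dpf for each tested member of 16 gene lists, with black bars at the list medians; red points were called higher, blue points called lower, dark grey points had an unadjusted p under 0.05 only. Called members sit in the meiotic, early oocyte and histone lists to the right, and 1 each in the mitosis and sterol lists to the left, while the medians lie between -0.41 and 0.74.

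Further called genes had other roles. In trunk cells, 24 of the 32 genes called higher were below 1 TPM in both libraries, LHX8 among them at 0 and 0.65 TPM. So were 143 of the 301 genes higher without overlap and 36 of the 289 lower ones. The share over all genes tested was not counted. Trunk libraries had 16762 and 15887 genes with at least 10 counts, against 19641 to 20284 in the 7 W-hybrid libraries. CDKN2D, an inhibitor of the cyclin D kinases, had 23.06, 95.24, 18.53 and 28.07 TPM at 12 dpf, against 2.23, 3.37 and 4.5 TPM at 10 dpf (log2 fold change 3.6 ± 0.55, adjusted p = 0.0104), the largest fold change of the 37 called genes. larp6b, an RNA-binding protein of the La family, had 12.11, 4.43, 3.99 and 5.41 TPM at 12 dpf, against 0.48, 0.51 and 1.03 TPM at 10 dpf (log2 fold change 3.18 ± 0.47, adjusted p = 0.00737). lrp13, a lipoprotein receptor of fish ovaries, averaged 18.7 ± 8.75 TPM at 12 dpf and 4.49 ± 0.99 TPM at 10 dpf (adjusted p = 0.00613). E2F5, a cell cycle transcription factor, averaged 120.1 ± 35 TPM at 12 dpf and 52.1 ± 3.66 TPM at 10 dpf (adjusted p = 0.0269). saxo4 averaged 8.10 TPM at 12 dpf and 1.65 TPM at 10 dpf (adjusted p = 0.0121), and DNALI1 17.5 TPM at 12 dpf and 4.35 TPM at 10 dpf (adjusted p = 0.0312). SPATA4, a gene of the testis in mammals, averaged 67.1 TPM at 12 dpf and 22.9 TPM at 10 dpf (adjusted p = 0.0167). Where the 12-dpf level peaked was uneven, since replicate 2 was the highest of the 4 libraries for 23 of the 32 genes, replicate 3 for 6, replicate 1 for 3 and replicate 4 for none.

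**Figure D3:**
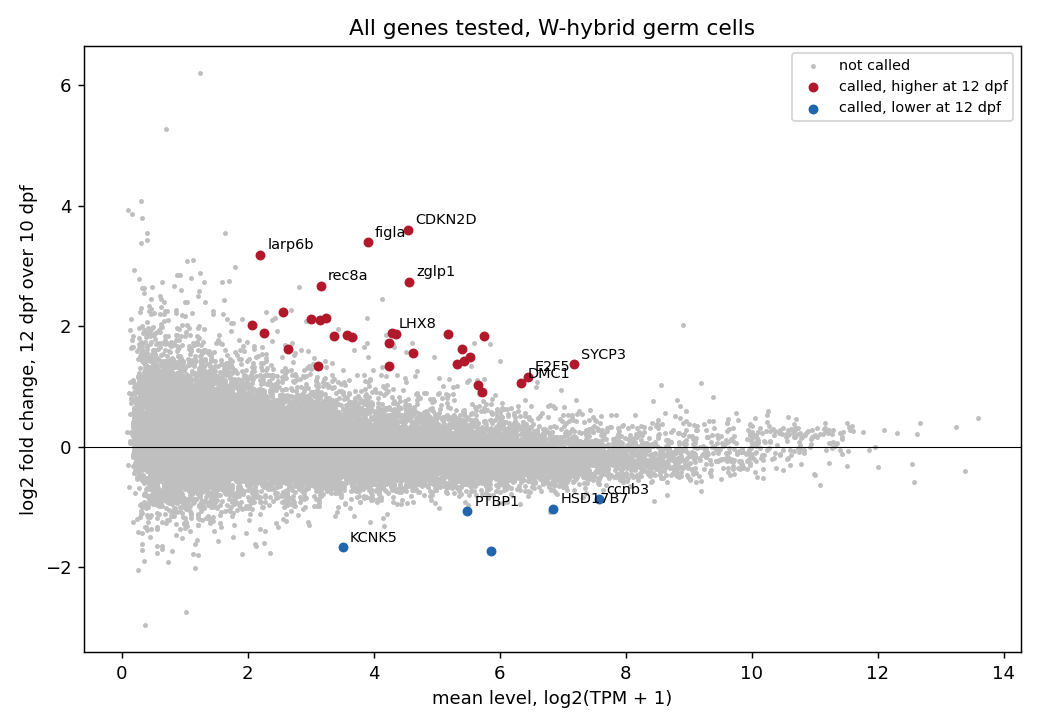
Each point is 1 of the 20474 genes tested, plotted by its mean level (log2(TPM + 1) over both ages) and its log2 fold change at 12 over 10 dpf; red points were called higher and blue points called lower. The 32 red points lie at log2 fold changes of 0.92 to 3.6 and the 5 blue points at -1.72 to -0.87.

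The 5 genes called lower were sensitive to which libraries were used. PTBP1 (ENSDARG00000031907), an RNA-binding repressor of splicing, had 36.99, 24, 27.33 and 25.19 TPM at 12 dpf, against 70.43, 37.9 and 69.84 TPM at 10 dpf (log2 fold change -1.06 ± 0.19, adjusted p = 0.0269). HSD17B7 (ENSDARG00000088140), a ketosteroid reductase of cholesterol synthesis, had 106.61, 52.43, 64.66 and 84.15 TPM at 12 dpf, against 155.56, 140.95 and 160.14 TPM at 10 dpf (log2 fold change -1.03 ± 0.19, adjusted p = 0.035). ccnb3, the cyclin B3 gene, had 177.32, 117.85, 100.51 and 146.6 TPM at 12 dpf, against 249.54, 213.73 and 264.95 TPM at 10 dpf (log2 fold change -0.87 ± 0.17, adjusted p = 0.0462). The ages did not overlap for any of these genes, and the other genes called lower were the potassium channel gene KCNK5 (ENSDARG00000023587; 5.17 TPM at 12 dpf and 15.5 TPM at 10 dpf) and si:ch73-65n21.1 (ENSDARG00000098037; 27.5 TPM at 12 dpf and 86.9 TPM at 10 dpf). Each of the 5 was lost in at least 3 of the 7 fits that left out 1 library, and without 12-dpf replicates 2 and 3 only KCNK5 was still called.

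In the mitosis list, ccnb3 alone was called. Of 55 tested, 19 were lower and 3 higher at an unadjusted p under 0.05, and the median log2 fold change was -0.30. CDK1, the kinase that starts mitosis, had 597.55, 355.04, 330.75 and 510.82 TPM at 12 dpf, against 775.31, 681.46 and 706.28 TPM at 10 dpf (log2 fold change -0.73 ± 0.19, adjusted p = 0.156). The lowest values were those of replicates 2 and 3, and without both libraries 7 mitotic genes were lower and 1 higher at an unadjusted p under 0.05, with a median of -0.17. plk1 and NUSAP1, of the mitotic spindle, had log2 fold changes of -0.80 and -0.83, whereas birc5b, a copy of the survivin gene, had 1.04. DNA replication genes were split: 3 of 58 were higher and 7 lower at that threshold, with a median of -0.07 (none higher, 3 lower and -0.04 without 12-dpf replicates 2 and 3), and PCNA, the polymerase clamp, had 1080.6, 1330.23, 793.36 and 831.48 TPM at 12 dpf, against 992.36, 1000 and 978 TPM at 10 dpf (adjusted p = 0.974).

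Sterol synthesis had the lowest median of the lists examined, -0.41: 1 of 23 members was called lower, and 9 were lower and none higher at an unadjusted p under 0.05. FDPS, the farnesyl diphosphate synthase, had 104.2, 44.94, 52.06 and 90.73 TPM at 12 dpf, against 137.12, 160.45 and 145.23 TPM at 10 dpf (log2 fold change -1.08 ± 0.24, adjusted p = 0.0938). insig1, which restrains the pathway when sterol is plentiful, had a log2 fold change of -0.91, and MSMO1, a sterol demethylating oxidase, -0.74. As for mitosis, replicates 2 and 3 were the lowest, and without both 6 members were lower and none higher at an unadjusted p under 0.05, with a median of -0.31.

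Germ cell identity genes were not called. DAZL, an RNA-binding protein of germ cells, had 915.15, 958.07, 738.36 and 916.88 TPM at 12 dpf, against 879.67, 855.27 and 978.13 TPM at 10 dpf (log2 fold change -0.07 ± 0.15). PIWIL1, the ziwi protein whose promoter drove the GFP of the sort, had 1096.84, 1183.55, 1273.02 and 828.94 TPM at 12 dpf, against 1008.02, 721.11 and 1163.09 TPM at 10 dpf (log2 fold change 0.15 ± 0.17). In both the ages overlapped. No gene was called among the 14 of germ plasm and germ cell identity, the 16 of the piRNA pathway or the 20 of undifferentiated germ cells. In the last of these lists no member reached an unadjusted p under 0.05 in either direction. nanos2, a marker of germline stem cells, had 31.43, 22.1, 26.19 and 15.77 TPM at 12 dpf, against 10.33, 11.37 and 21.76 TPM at 10 dpf (adjusted p = 0.387). RBPMS2 (ENSDARG00000079578), an RNA-binding protein of oocytes, averaged 51.8 TPM at 12 dpf and 25.9 TPM at 10 dpf (log2 fold change 1.0, adjusted p = 0.0845).

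**Figure D4:**
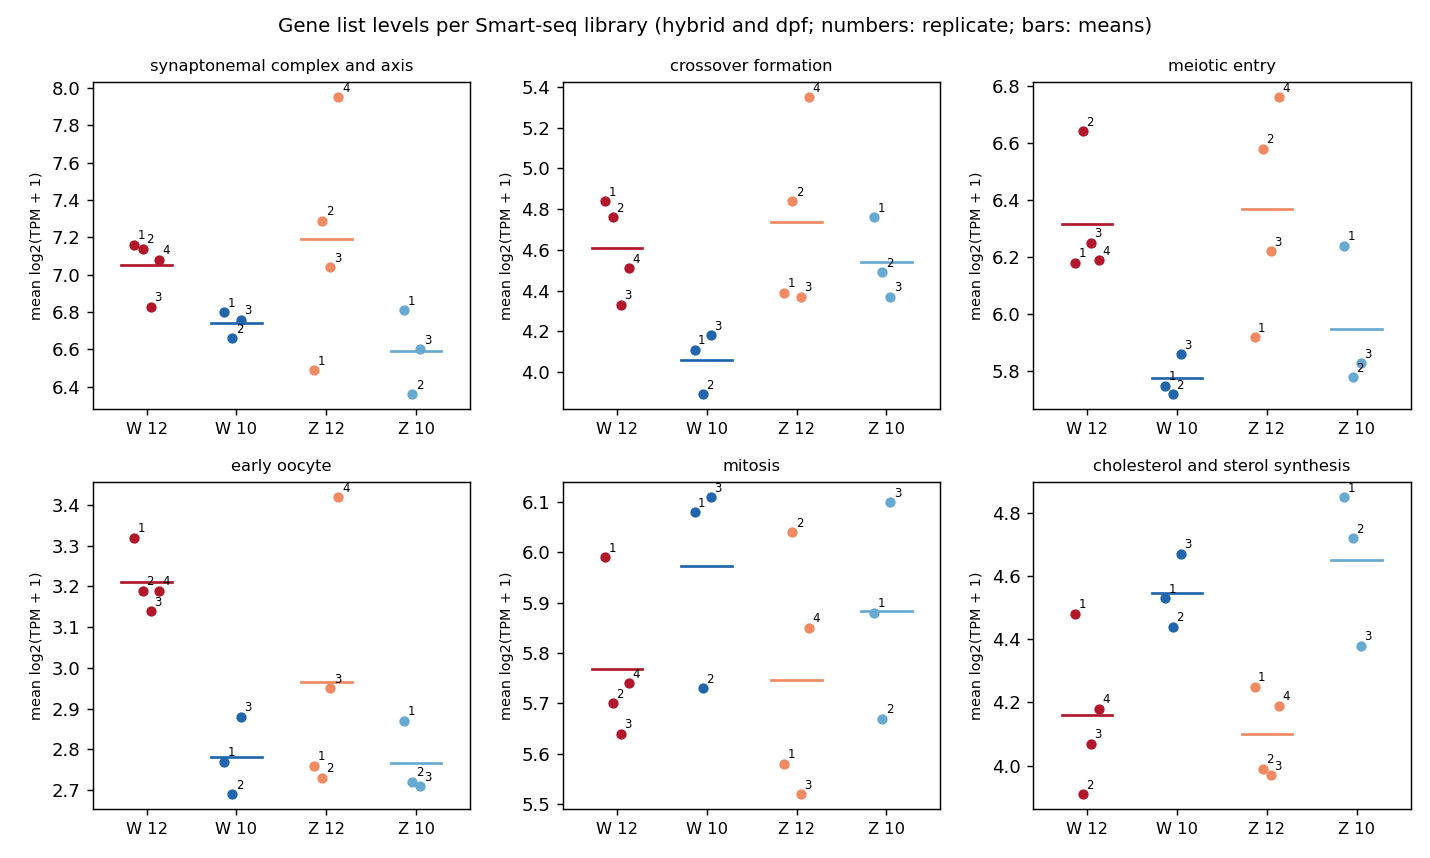
Mean log2(TPM + 1) over the members of 6 lists in each Smart-seq library of the W-hybrid (12 dpf, then 10 dpf) and the Z-hybrid (12 dpf, then 10 dpf), with replicate numbers beside the points and bars at the group means. In the W-hybrid the 2 ages do not overlap for the synaptonemal complex, crossover, meiotic entry and early oocyte lists, whereas they overlap for mitosis and sterol synthesis. The early oocyte levels were 3.14 to 3.32 at 12 dpf and 2.69 to 2.88 at 10 dpf. Those of the synaptonemal complex nearly touched, at 6.83 to 7.16 and 6.66 to 6.8. Summed TPM of the synaptonemal complex and meiotic entry lists overlapped. That of sterol synthesis did not, at 552 to 908 TPM at 12 dpf and 1070 to 1140 TPM at 10 dpf. In the Z-hybrid the ages overlap for every list shown except sterol synthesis, which was lower at 12 dpf.

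The Z-hybrid libraries of the same ages give another look at these genes. All 32 genes called higher in the W-hybrid had a log2 fold change above 0 in the Z-hybrid at 12 over 10 dpf, with a median of 2.03, and 29 of them had an unadjusted p under 0.05 there, beside 10.8% of all genes tested. In that comparison 50% of all genes lay above 0. Of the wider sets whose libraries do not overlap, 246 of 301 higher genes and 131 of 288 lower genes had a log2 fold change above 0 in the Z-hybrid. Of the 5 genes called lower in the W-hybrid, 1 was also called lower in the Z-hybrid. None of the 32 was called in the Z-hybrid, in which 5 genes were called higher (0.0245%) and 3 lower (0.0147%). That count turned on the libraries used. Without Z-hybrid 12-dpf replicate 3 it was 0. Without Z-hybrid 12-dpf replicate 1 it was 1555, with 4.96% of genes called higher, and 27 of the 32 were among them. Replicate 1 was low for such genes, with MEIOB at 10.87 TPM there and 10.53 to 17.78 TPM at 10 dpf. Leaving it out therefore favoured these calls, so the 27 are no separate check. figla had 3.52, 16.19, 17.86 and 77.75 TPM in the 12-dpf Z-hybrid libraries, against 6.36, 1.42 and 1.21 TPM in the 10-dpf ones, so replicate 1 at 12 dpf lay within the 10-dpf range and replicate 4 far above the rest.

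The difference between the hybrids was tested as the change in the W-hybrid minus that in the Z-hybrid. No gene of 21675 passed an adjusted p of 0.05 with edgeR, while 1724 (7.95%) were above and 2002 (9.24%) below 0 at an unadjusted p under 0.05, and DESeq2 gave 506 genes. Without Z-hybrid 12-dpf replicate 1 edgeR gave 361 (1.68%). The called genes were chosen by their change in W-hybrid libraries that this test uses too, which favours a difference in the direction of the call. Of the 32 genes called higher, 2 had an unadjusted p under 0.05 for the difference, and of the 5 called lower 3 had. KCNK5 (ENSDARG00000023587) was one of these: its log2 fold change was -1.66 in the W-hybrid and -0.35 in the Z-hybrid (adjusted p = 0.144 for the difference by edgeR).

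Of 101 genes of oxidative phosphorylation tested for the difference, 38 had a lower change in the W-hybrid at an unadjusted p under 0.05 and none a higher one. Their median log2 fold change was -0.05 in the W-hybrid and 0.37 in the Z-hybrid. Mitosis gave 19 of 55 with a lower change in the W-hybrid and 3 with a higher one, with medians of -0.30 in the W-hybrid and 0.07 in the Z-hybrid. Of 52 proteasome genes, 21 had a lower change in the W-hybrid and 2 a higher one, and of 13 mitochondrially encoded genes, 11 had a lower change and none a higher one. Of the meiotic lists, 3 of 7 synaptonemal complex and 5 of 17 strand exchange genes had a lower change and none a higher one. The cohesin list had 1 of 11 lower, and crossover genes none in either direction. Meiotic entry and early oocyte genes had 1 each way. Medians in the W- and Z-hybrid were 0.29 and 0.76 for the synaptonemal complex, 0.09 and 0.55 for strand exchange, and 0.74 and 0.59 for crossover genes. The counts with a lower change were 43 for oxidative phosphorylation, 22 for mitosis, 24 for the proteasome and 12 for mitochondrially encoded genes without Z-hybrid 12-dpf replicate 1, beside 10.7% of all genes.

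The next interval in the same hybrid was covered by other libraries, those made by Quartz-seq at 14 and 12 dpf. Levels were not compared between the methods. Muscle markers summed to 672 and 5320 TPM in the 12-dpf Quartz-seq libraries, against 407 and 451 TPM at 14 dpf. The part of this in the changes below was not tested. Of the 32 genes called higher at 12 over 10 dpf, 29 had a log2 fold change above 0 at 14 over 12 dpf, with a median of 0.98 and 18 at an unadjusted p under 0.05, beside 2.79% of all genes higher at that threshold; 49.7% of all genes lay above 0. Of the wider sets, 202 of 286 higher genes and 138 of 279 lower genes lay above 0 there. larp6b had 63.87 and 69.76 TPM at 14 dpf, against 5.81 and 4.46 TPM at 12 dpf, and was 1 of the 2 genes called (0.00973%) in that comparison. LHX8 had 98.85 and 151.56 TPM at 14 dpf, against 38.29 and 15.4 TPM at 12 dpf (log2 fold change 2.08, adjusted p = 0.345 by edgeR). rec8a had 270.44 and 345.51 TPM at 14 dpf, against 405.8 and 374.3 TPM at 12 dpf (log2 fold change -0.43).

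**Figure D5:**
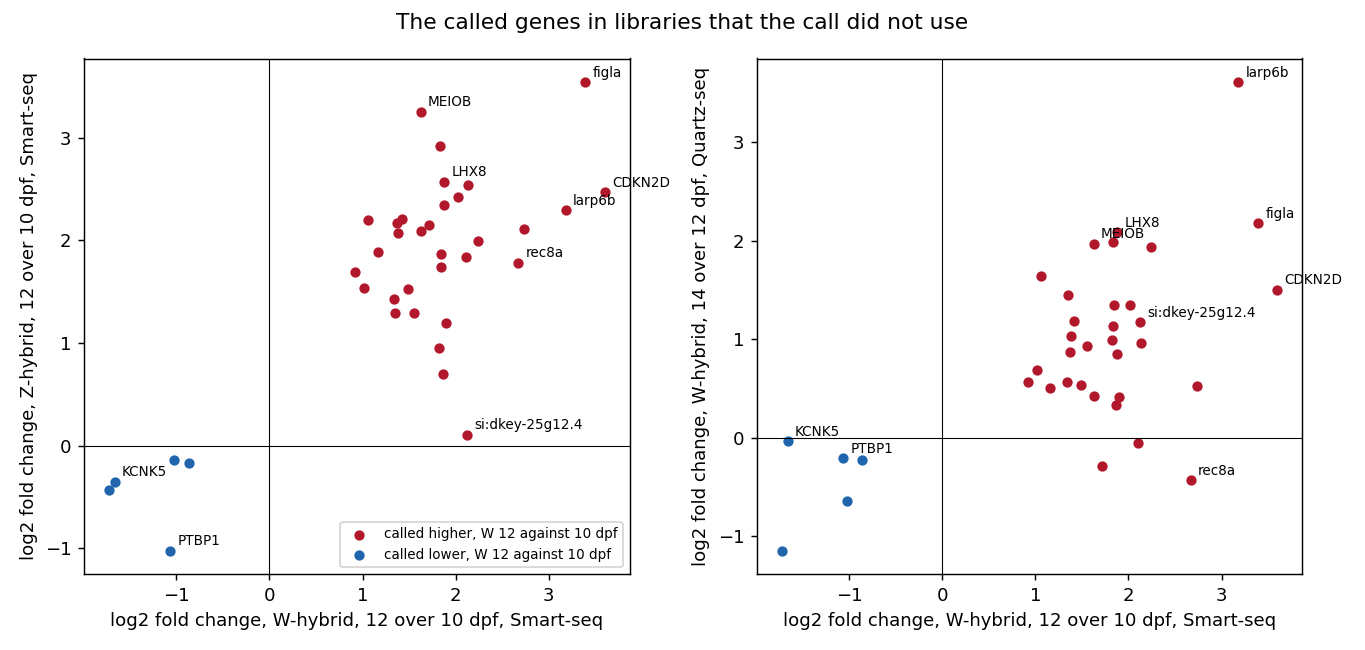
Log2 fold changes of the 37 called genes in the W-hybrid at 12 over 10 dpf (horizontal) against those in the Z-hybrid at 12 over 10 dpf (left, vertical) and in the W-hybrid at 14 over 12 dpf by Quartz-seq (right, vertical). All 32 red points (called higher) lie above 0 on the left and 29 of 32 on the right, and all 5 blue points (called lower) lie below 0 in both.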

How the data were processed

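The members and gene lists were chosen with earlier results of these data known. Reads were processed by the authors with STAR 2.7.7a and RSEM 1.3.1 on GRCz11, as the submitters' processing notes name them; the authors deposited expected counts per gene, in which reads that fit several genes are shared out, and TPM, a length-corrected level scaled to 1 common sum for every library. Gene symbols came from the table of Ensembl identifiers (28988 of 32057 genes matched); names that matched no gene were not analysed here, and some genes are not reported here.

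Expected counts were rounded to whole numbers and tested in R 4.3.3 with edgeR 4.0.16 (TMM scaling, filterByExpr, robust quasi-likelihood fit, Benjamini-Hochberg adjustment), on the W-hybrid Smart-seq libraries only. Calls needed all of the limits given above (0.05 for the adjusted p, 1.5 for the fold, 5 for TPM). Standard errors are the log2 fold change over the square root of F. Lists were described by counts and medians, with no test of a list. An exact two-sided permutation test of 4 against 3 libraries cannot go below p = 0.0571, so none was used. The script was tested on simulated counts. Within each age of the W-hybrid Smart-seq libraries, no library was a copy of another. Other pairs of libraries were not checked in this way. Genes were named by rule: of the genes called, and of those at least 1.5-fold with no overlap, the 15 of smallest p in each direction; up to 4 of each list per direction at an unadjusted p under 0.05, with a fixed set of germ cell genes; and the 5 of smallest p per direction for the difference between hybrids. E2F5, DNALI1, bmp15, GDF9, zp3b, exo1, terb1, MAJIN, plk1 and ENSDARG00000115978 lie outside it and were chosen after their values were seen. Alternatives were DESeq2 1.42.0, other scalings and filters, thinned counts, a replicate block, all Smart-seq libraries in 1 fit and leaving out libraries.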

Additional observations from a re-analysis of the deposited data

Results flagged for a closer look

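In 10 of 210 items, genes and list levels, the highest or lowest of the 4 W-hybrid 12-dpf libraries lay far from the other 3, by a gap above Dixon's 95% critical share of their range; chance gives about 1 in 20. CDKN2D had 95.24 TPM in replicate 2 and 18.53 to 28.07 TPM in the others (gap 0.876 of the range), SYCP3 312.75 TPM in replicate 2 and 158.78 to 181.94 TPM in the others (0.85), and COX7A2 888.75 TPM in replicate 2 and 718.07 to 735.87 TPM in the others (0.896). IGFBP2 was lowest in replicate 2, at 9.98 TPM (0.839), NEB highest in replicate 1, at 37.14 TPM (0.842), and the liver gene apoa1b highest in replicate 3, at 14.42 TPM (0.892).

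Of the lists, by mean log2(TPM + 1), meiotic entry was highest in replicate 2, at 6.64 (0.834), undifferentiated germ cells lowest in replicate 2, at 1.74 (0.848), cytosolic ribosomal proteins lowest in replicate 1, at 9.37 (0.858), and epidermis markers highest in replicate 3, at 2.53 (0.858).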

How the results depend on the processing

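All 32 genes called higher kept a positive log2 fold change under each setting in which they were tested. They were chosen as higher in these same libraries, so their sign was largely set in advance and is no check of the calls. The 37 calls became 183 with DESeq2, 59 with no filter on low counts, 0 in the fit of 14 Smart-seq libraries and 24 without Z-hybrid 12-dpf replicate 1 in it. The last of these settings was chosen after seeing the data. Genes at an adjusted p under 0.05, 42 in all, became 246, 75, 0 and 26 under the same settings. With library size alone, unadjusted calls split 1734 higher and 840 lower, against 1359 and 1314, and genes without overlap 381 and 173, against 301 and 289; the median of all genes became 0.09. Genes without overlap, 590 in all, were 1229 with no TPM minimum. Chosen after seeing the data, leaving out 12-dpf replicates 2 and 3 gave 391 of these and 1295 at an unadjusted p under 0.05 (2673 with all libraries). Leaving out 1 library at a time gave 9 to 83 called genes, 9 to 103 at the adjusted threshold, 1490 to 3592 at the unadjusted one and 496 to 1145 without overlap, with the fewest calls without a 10-dpf library and the most without 12-dpf replicate 4 or 1. Hybrid differences, 0 genes, became 506 with DESeq2 and 0 to 361 without 1 library. Z-hybrid calls, 8 genes, became 1066 with DESeq2, 4 with library size alone, 5 with RLE size factors, 130 with no filter, and 0 to 1555 without 1 library, the most without 12-dpf replicate 1. The causes were not tested.

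The labels do not say whether same-numbered libraries share a clutch or day. Deviations of same-numbered libraries from their group means correlated at -0.02, -0.04 and 0.06. For replicate 3 alone, the most alike 10-dpf library had the same number. With so few libraries these values cannot settle whether the numbers pair them. With the replicate block the calls numbered 443 (189 higher, 254 lower), those at the adjusted threshold 506 (248 higher, 258 lower), 2 genes differed between hybrids, 2 were called in the Z-hybrid, and PCNA had a log2 fold change of 0.024.

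Some log2 fold changes that had not passed the test turned sign. Without 12-dpf replicates 2 and 3 they were -0.068 for YTHDC2, 0.005 for spo11, -0.053 for DDX4, 0.007 for HORMAD1, -0.028 for PIWIL1 and -0.03 for NANOS3. With library size alone they were 0.062 for spinb, 0.044 for PCNA and 0.038 for CENPX. Thinned counts gave 0.01 for spinb and 0.003 for PCNA, and a minimum of 10 counts gave 0.012 for spinb. Leaving out 1 library at a time, TYRP1 (ENSDARG00000056151) ranged over -1.812 to 0.269 (positive without 10-dpf replicate 1), DND1 over -0.336 to 0.024, spinb over -0.071 to 0.161, DAZL over -0.127 to 0.022, PCNA over -0.199 to 0.104, NANOS3 over -0.104 to 0.28 and CENPX over -0.186 to 0.127.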

Other observations

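Histone genes numbered 27 tested, 9 of them higher and none lower at an unadjusted p under 0.05, and their median was 0.44 on the log2 scale, but without 12-dpf replicates 2 and 3 these were 2 genes and a median of 0.09.

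Of 95 ribosomal protein genes tested, 82 had a log2 fold change above 0 at 12 over 10 dpf, with a median of 0.23, but 12 were higher and 1 lower at an unadjusted p under 0.05, and none was called. Without 12-dpf replicates 2 and 3 these were 2 higher and none lower. Proteasome genes had a median of -0.17, with 10 of 52 lower and 1 higher at that threshold, against -0.06, 4 lower and none higher without the same libraries. The chaperone gene HSP90AA1 had 399.3, 456.68, 488.01 and 406.02 TPM at 12 dpf, against 277.77, 234.5 and 236.29 TPM at 10 dpf, and missed the threshold (log2 fold change 0.76 ± 0.15, adjusted p = 0.0533 by edgeR).

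Both copies of RRM2, the small subunit of ribonucleotide reductase, had log2 fold changes at 12 over 10 dpf of -0.39 (ENSDARG00000020711) and 0.24 (ENSDARG00000078069) in the W-hybrid, neither past the test. The first averaged 138 TPM at 12 dpf and 46.6 TPM at 10 dpf in the Z-hybrid, and the other averaged 34 TPM at 12 dpf and 109 TPM at 10 dpf there. The change in the W-hybrid minus that in the Z-hybrid was -2.38 ± 0.42 on the log2 scale for ENSDARG00000020711 (adjusted p = 0.106 by edgeR, and 0.0251 without Z-hybrid 12-dpf replicate 1). Reads shared between near-identical copies make each copy's level uncertain.

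ENSDARG00000115978, chosen after its values were seen, had 254.53, 1022.21, 1590.76 and 198.53 TPM at 12 dpf, against 181.11, 117.89 and 281.33 TPM at 10 dpf, so that replicates 2 and 3 stood apart by it too.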
